A study of Homo sapiens with 4 samples.

Results

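The miR-181 family was followed through 4 small RNA libraries made from exosomes, membrane vesicles shed by cells, of a pair of human colon cancer lines. Exosomes were collected by differential ultracentrifugation. The members were chosen by name, as 6 mature miRNAs of the 2588 listed in each library: hsa-miR-181a-5p, hsa-miR-181b-5p, hsa-miR-181c-5p, hsa-miR-181d-5p, hsa-miR-181a-3p and hsa-miR-181c-3p. A further 4 listed arms of the family (miR-181a-2-3p, miR-181b-3p, miR-181b-2-3p and miR-181d-3p) are given beside them. The groups are HCT29 spheres, HCT29 parental cells, HCT15 spheres and HCT15 parental cells, with 1 library each. Below, a value given for spheres or for parental cells is that of their exosomes, not of the cells. Spheres are floating colonies, grown for 3 weeks in DMEM/F12 with N2 supplement, bFGF at 10 ng/ml and EGF at 10 ng/ml, and are used to enrich for stem-like cells. Parental cells grew in complete RPMI, and their exosomes were collected in an exosome-depleted form of it, so culture and medium differ together. The growth text of the HCT29 samples names HCT15, so the identity of that line rests on the sample titles and the cell subtype labels. The study asked which exosomal miRNAs matter for the malignancy of colon cancer stem cells.

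A miRNA gene is transcribed into a hairpin, and the hairpin is cut into a 5p and a 3p strand, or arm. Usually 1 arm is kept by an Argonaute protein as the guide and the other is degraded. The guide finds target mRNAs mainly through its seed, bases 2 to 8. In the miR-181 family the 5p arms are the guides. The family is best known from blood: in mouse, miR-181a raises the sensitivity of T cells to antigen by repressing phosphatases. miR-181b represses CYLD, a deubiquitinase that restrains NF-kB, and miR-181d represses MGMT, a DNA repair enzyme. miR-181c was found in rat heart mitochondria, where it lowers a subunit of cytochrome c oxidase.

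The mature sequences are printed here 5′ to 3′ from RefSeq (GRCh38.p14), which held all 10 arms, because the arms show which hairpin a read can come from. Capitals mark the seed.
hsa-miR-181a-5p: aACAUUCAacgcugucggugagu
hsa-miR-181b-5p: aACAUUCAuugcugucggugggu
hsa-miR-181c-5p: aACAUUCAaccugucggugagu
hsa-miR-181d-5p: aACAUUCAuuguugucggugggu
hsa-miR-181a-3p: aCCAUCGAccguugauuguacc
hsa-miR-181a-2-3p: aCCACUGAccguugacuguacc
hsa-miR-181c-3p: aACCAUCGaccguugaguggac
The 5p arms share the seed ACAUUCA, and of 2281 listed miRNAs with a RefSeq sequence, 5 have it: these arms and miR-4262, which had 0 reads in all 4 libraries. Counted from 1 at the 5′ end, miR-181b-5p differs from miR-181a-5p by A9U, C10U and A21G, miR-181c-5p by G11del, and miR-181d-5p differs from miR-181b-5p by C12U. With 1 base between miR-181a-5p and miR-181c-5p, and 1 between miR-181b-5p and miR-181d-5p, how the authors assigned reads with an error at that base can move reads within each pair. The miR-181a 3p arms differ by more than these 1-base pairs, miR-181a-2-3p from miR-181a-3p by U5C, C6U and U16C.

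The genes lie in pairs at 3 places. On chromosome 1 (GRCh38, minus strand), MIR181A1 runs from 198859044 to 198859153 and MIR181B1 from 198858873 to 198858982, in an intron of the long noncoding gene MIR181A1HG. On chromosome 9 (plus strand), MIR181A2 runs from 124692442 to 124692551 and MIR181B2 from 124693710 to 124693798, in an intron of MIR181A2HG and opposite to an intron of NR6A1. On chromosome 19 (plus strand), MIR181C runs from 13874699 to 13874808 and MIR181D from 13874875 to 13875011, in an intron of NANOS3. miR-181a-5p and miR-181b-5p come from chromosomes 1 and 9 alike and cannot be assigned to either. miR-181a-3p comes from MIR181A1 alone, and miR-181a-2-3p from MIR181A2 alone, as the hairpins show, with both arms in capitals.
MIR181A1: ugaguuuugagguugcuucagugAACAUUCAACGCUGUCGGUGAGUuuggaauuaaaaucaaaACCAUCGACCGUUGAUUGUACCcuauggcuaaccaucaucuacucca
MIR181A2: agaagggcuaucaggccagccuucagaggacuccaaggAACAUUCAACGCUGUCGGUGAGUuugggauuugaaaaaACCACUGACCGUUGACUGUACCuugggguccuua

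Levels are RPM, a library's reads scaled to a common total, and each nonzero value converts to a whole number of reads. The totals so implied are 530920 reads for HCT29 sphere, 110666 for HCT29 parental, 461226 for HCT15 sphere and 146648 for HCT15 parental. Brackets after a level, ratio or share hold exact 95% intervals (Poisson for levels, Clopper-Pearson for ratios and shares), which cover counting error only. With 1 library a group there is no replicate error and no p-value within a line. A count of 0 allows up to 6.95 RPM in HCT29 sphere, 33.3 in HCT29 parental and 25.2 in HCT15 parental. All 8 chosen markers of intestinal epithelium had reads in every library, with sums of 131997.3 RPM in HCT29 sphere, 96551.8 in HCT29 parental, 22713.4 in HCT15 sphere and 14722.3 in HCT15 parental. Most of the HCT29 sphere sum was miR-192-5p (75265.6 RPM) and miR-375 (45016.2 RPM). By the 2-fold rule given with the ratios, 6 of the 8 were higher and 2 lower in HCT29 than in HCT15 parental exosomes. Of all 224 miRNAs measured there, 22.8% were higher and 46.4% lower. In sphere exosomes 5 were higher and 2 lower in HCT29, beside 25.2% and 56.0% of 325. In parental exosomes miR-194-5p and miR-215-5p passed the filter of 10 reads through HCT29 alone, where they were high.

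The family was led by miR-181a-5p. It had 22029.7 RPM in HCT29 sphere (21632.2 to 22432.6), 28870.7 in HCT29 parental (27878.2 to 29889.5), 7024.8 in HCT15 sphere (6784.9 to 7270.9) and 7153.2 in HCT15 parental (6726.8 to 7599.5). Both HCT29 libraries lay above both HCT15 libraries, and the HCT15 libraries could not be told apart by counting error. It ranked 9th, 6th, 23rd and 18th among the listed miRNAs of these libraries, in the same order. It held 82.1%, 86.8%, 78.1% and 79.8% of the reads of the 6 members. The members together took 3.09% of the listed miRNA reads in HCT29 sphere (3.04 to 3.14), 3.81% in HCT29 parental (3.69 to 3.93), 1.00% in HCT15 sphere (0.971 to 1.03) and 1.15% in HCT15 parental (1.09 to 1.22).

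miR-181b-5p, its partner at both places, had 4665.5 RPM in HCT29 sphere, 4030.1 in HCT29 parental, 1142.6 in HCT15 sphere and 934.2 in HCT15 parental. The order of the lines was that of miR-181a-5p. Its levels in the HCT15 libraries have overlapping intervals (1047.1 to 1244.5 in spheres and 784.3 to 1104.4 in parental cells).

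miR-181c-5p had 45.2 RPM in HCT29 sphere, 117.5 in HCT29 parental, 509.5 in HCT15 sphere and 272.8 in HCT15 parental, on 24, 13, 235 and 40 reads. Here the lines stood in the opposite order, with both HCT15 libraries above both HCT29 libraries, although the intervals of HCT29 parental (62.5 to 200.9) and HCT15 parental (194.9 to 371.4) overlap slightly. miR-181d-5p, from the same place on chromosome 19, had 11.3, 99.4, 134.4 and 190.9 RPM in the same libraries, on 6, 11, 62 and 28 reads. Only HCT29 sphere stood clear of the others for miR-181d-5p, since the intervals of the other libraries overlap.

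Of the 3p arms, miR-181a-3p had 90.4 RPM in HCT29 sphere, 117.5 in HCT29 parental, 147.4 in HCT15 sphere and 306.9 in HCT15 parental. It was highest in HCT15 parental, and the intervals of the other libraries overlap. miR-181c-3p had 0 reads in HCT29 sphere, 1 in HCT29 parental, 16 in HCT15 sphere and 15 in HCT15 parental, or 0, 9.04, 34.7 and 102.3 RPM. It was thus near the limit of detection in HCT29. miR-181a-2-3p, the arm of chromosome 9, had 241.1, 207.8, 36.9 and 54.5 RPM in the same libraries, on 128, 23, 17 and 8 reads, with both HCT29 libraries above both HCT15 libraries. miR-181b-3p had 3, 0, 2 and 0 reads, and miR-181b-2-3p and miR-181d-3p had 0 reads throughout.

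**Figure D1:**
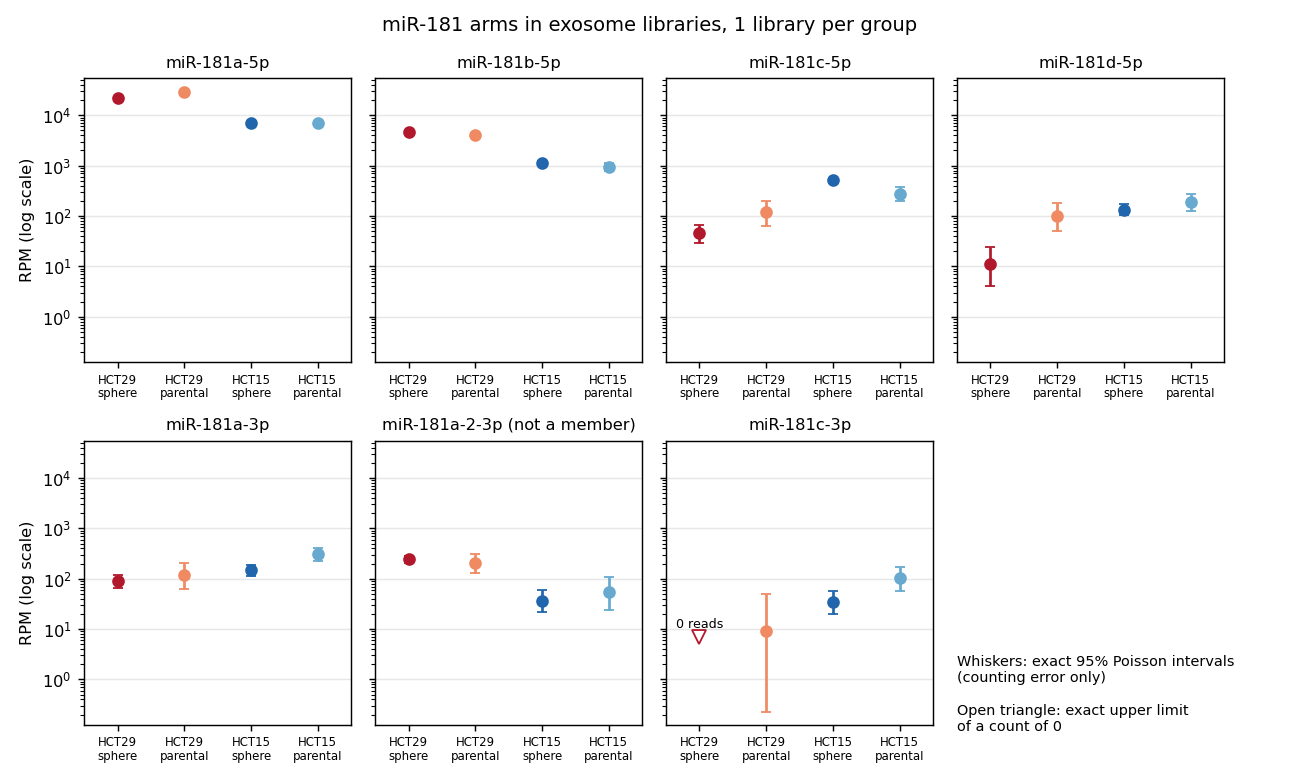
Level of each miR-181 arm in RPM (log scale) in the 4 libraries, with exact Poisson intervals as whiskers and an open triangle at the upper limit for a count of 0. miR-181a-5p, miR-181b-5p and miR-181a-2-3p are higher in both HCT29 libraries, and miR-181c-5p in both HCT15 libraries.

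The lines were compared within each culture. A miRNA counts as measured where at least 10 reads are in 1 of the 2 libraries compared, and is called higher or lower where RPM + 1 differs at least 2-fold. In parental exosomes, miR-181a-5p was 4.04-fold higher in HCT29 than in HCT15 (3.76 to 4.33) and miR-181b-5p 4.31-fold higher (3.56 to 5.26). miR-181a-2-3p was 3.81-fold higher (1.65 to 9.85), while miR-181a-3p stood at 0.383 times the HCT15 level (0.190 to 0.722). miR-181c-5p was at 0.431 times (0.211 to 0.822) and miR-181d-5p, within 2-fold, at 0.521 times (0.234 to 1.08). miR-181c-3p was at 0.0883 times (0.00210 to 0.574), on 1 HCT29 read. In a bulk library, a change in which vesicles were released and a change in RNA per vesicle cannot be told apart.

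In sphere exosomes the lines also differed in both directions. In HCT29 spheres miR-181a-5p was 3.14-fold higher than in HCT15 spheres (3.02 to 3.26), miR-181b-5p 4.08-fold (3.72 to 4.49) and miR-181a-2-3p 6.54-fold (3.93 to 11.6). miR-181c-5p stood at 0.0887 times the HCT15 level (0.0557 to 0.135) and miR-181d-5p at 0.0841 times (0.0297 to 0.194). miR-181c-3p, with 0 reads in HCT29 spheres, was at 0 times the HCT15 level (0 to 0.225), so its interval reaches to 4.44-fold lower. With 3 reads taken as the floor for that library, it was 6.14-fold lower. miR-181a-3p was within 2-fold, at 0.613 times (0.415 to 0.901), and under DESeq2 size factors its log2 ratio turned to 0.10.

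In parental exosomes 2 of the 6 members were higher and 3 lower, where 22.8% and 46.4% of 224 measured miRNAs were. In sphere exosomes 2 were higher and 3 lower, where 25.2% and 56.0% of 325 were. These counts are near the background for 6 members, so they say little by themselves. miR-181c-3p in both comparisons and miR-181d-5p in spheres passed the filter through HCT15 alone, where they were high, and miR-181a-2-3p in parental exosomes passed through HCT29 alone, where it was high. The median log2 ratio of the measured members was -1.07 in parental and -2.08 in sphere exosomes, beside -0.84 and -1.47 over all measured miRNAs. What sets the members apart from each other is the direction within the family, which is taken up as shares in a library.

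**Figure D2:**
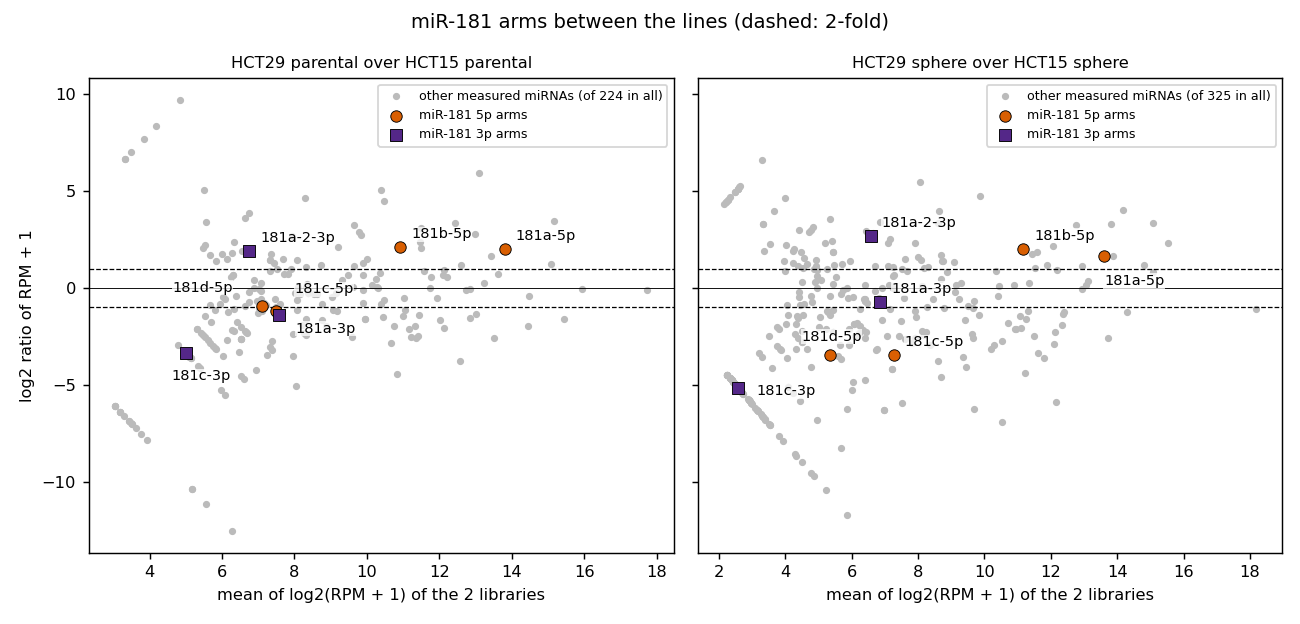
log2 ratio of RPM + 1, HCT29 over HCT15, against mean level for parental (left) and sphere exosomes (right), with measured miRNAs in grey, miR-181 5p arms as circles and 3p arms as squares. In both panels miR-181a-5p, miR-181b-5p and miR-181a-2-3p lie above the upper 2-fold line, and miR-181c-3p and miR-181c-5p below the lower one.

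Shares within a library do not depend on how libraries are scaled. miR-181c-5p and miR-181d-5p, the guides of chromosome 19, made up 0.211% of the family's 5p reads in HCT29 sphere (0.143 to 0.301), 0.655% in HCT29 parental (0.420 to 0.973), 7.31% in HCT15 sphere (6.53 to 8.15) and 5.42% in HCT15 parental (4.23 to 6.82). The odds of a 5p read being one of them were 8.70 times lower in HCT29 than in HCT15 parental exosomes (5.36 to 14.5) and 37.2 times lower in HCT29 than in HCT15 sphere exosomes (25.5 to 56.3). The intervals of the lines do not overlap in either culture.

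The 3p arms of the miR-181a hairpins also differed by chromosome. miR-181a-2-3p, of chromosome 9, made up 72.7% of both miR-181a 3p arms in HCT29 sphere (65.5 to 79.2), 63.9% in HCT29 parental (46.2 to 79.2), 17 of 85 reads in HCT15 sphere (12.1% to 30.1%) and 15.1% in HCT15 parental (6.75 to 27.6). The odds of chromosome 9 over chromosome 1 were 9.95 times higher in HCT29 than in HCT15 parental exosomes (3.27 to 31.5) and 10.7 times higher in sphere exosomes (5.49 to 21.2). Within each line the cultures did not differ in this share beyond counting error, with odds ratios of 1.51 in HCT29 (0.645 to 3.39) and 1.41 in HCT15 (0.520 to 4.09). How far the 3p arms measure the output of each hairpin was not tested.

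**Figure D3:**
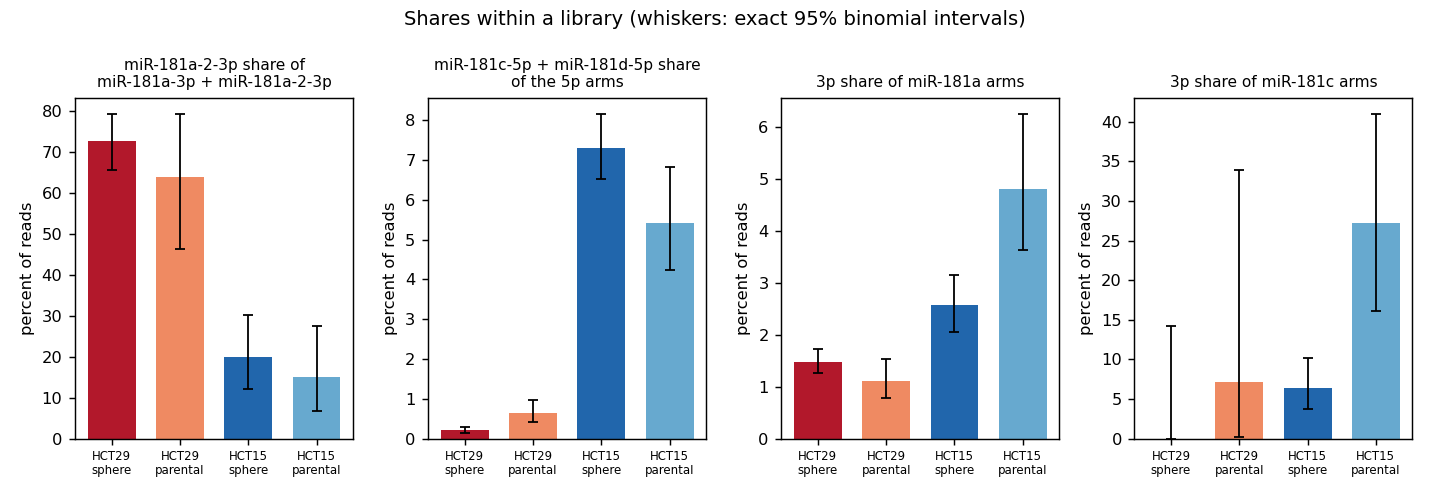
Percent of reads within a library, with exact binomial intervals as whiskers: chromosome 9 share of the miR-181a 3p arms, chromosome 19 share of the 5p arms, and 3p share of the miR-181a (both 3p arms together) and miR-181c arms. The first share is highest in the HCT29 libraries, at 72.7% and 63.9%, and the second in the HCT15 libraries, at 7.31% and 5.42%.

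The cultures were compared within each line to ask what differs when cells grow as spheres. The abundant guides differed little on the RPM scale. In HCT29, miR-181a-5p in spheres was at 0.763 times the parental level (0.734 to 0.794) and miR-181b-5p at 1.16 times (1.05 to 1.28). miR-181c-5p was lower in spheres, at 0.385 times (0.188 to 0.823), and so was miR-181d-5p, at 0.114 times (0.0345 to 0.335), on 6 sphere and 11 parental reads. miR-181a-3p was at 0.770 times (0.410 to 1.55) and miR-181a-2-3p at 1.16 times (0.740 to 1.90), and miR-181c-3p, with 0 and 1 reads, was not measured. Thus 0 of 5 measured members were higher and 2 lower, where 23.2% and 36.2% of 224 miRNAs were. miR-181d-5p passed the filter through the parental library alone.

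In HCT15, miR-181a-5p in spheres was at 0.982 times the parental level (0.916 to 1.05) and miR-181b-5p at 1.22 times (1.01 to 1.49). miR-181c-5p was at 1.87 times (1.33 to 2.68), just within 2-fold, and miR-181d-5p at 0.704 times (0.444 to 1.14). Lower in spheres were miR-181a-3p at 0.480 times (0.325 to 0.717) and miR-181c-3p at 0.339 times (0.157 to 0.737), while miR-181a-2-3p was within 2-fold at 0.676 times (0.276 to 1.81). So 0 of 6 members were higher and 2 lower, where 32.1% and 28.2% of 305 miRNAs were. Neither line's counts lie far from the background. The median log2 ratio of the measured members was -0.39 in HCT29 and -0.26 in HCT15, beside -0.57 and -0.12 over all measured miRNAs.

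These culture ratios depend on scaling. TMM scaling raised every log2 ratio of spheres over parental cells by 0.75 in HCT29 and 0.61 in HCT15, and DESeq2 size factors raised them by 0.88 and 0.46. Under TMM the log2 ratio of miR-181a-5p, -0.39 in HCT29, became 0.36, and that of HCT15, -0.03, became 0.59. The 2 lower 3p arms of HCT15 came within 2-fold (-0.44 and -0.93), miR-181c-5p of HCT15 became higher (1.51), and in HCT29 miR-181d-5p stayed lower (-2.31) while miR-181c-5p did not (-0.62). Under DESeq2 size factors miR-181b-5p became higher in HCT29 spheres (1.09). Over all measured miRNAs, TMM gave 76 higher and 48 lower in HCT29, against 52 and 81 on the RPM scale, and 123 and 51 in HCT15, against 98 and 86. The ratios between the lines shifted by 0.31 (parental) and 0.45 (spheres), and miR-181a-5p and miR-181b-5p stayed higher in HCT29 in both cultures. Between parental libraries the log2 ratio of miR-181c-5p, -1.21, became -0.90, within 2-fold.

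**Figure D4:**
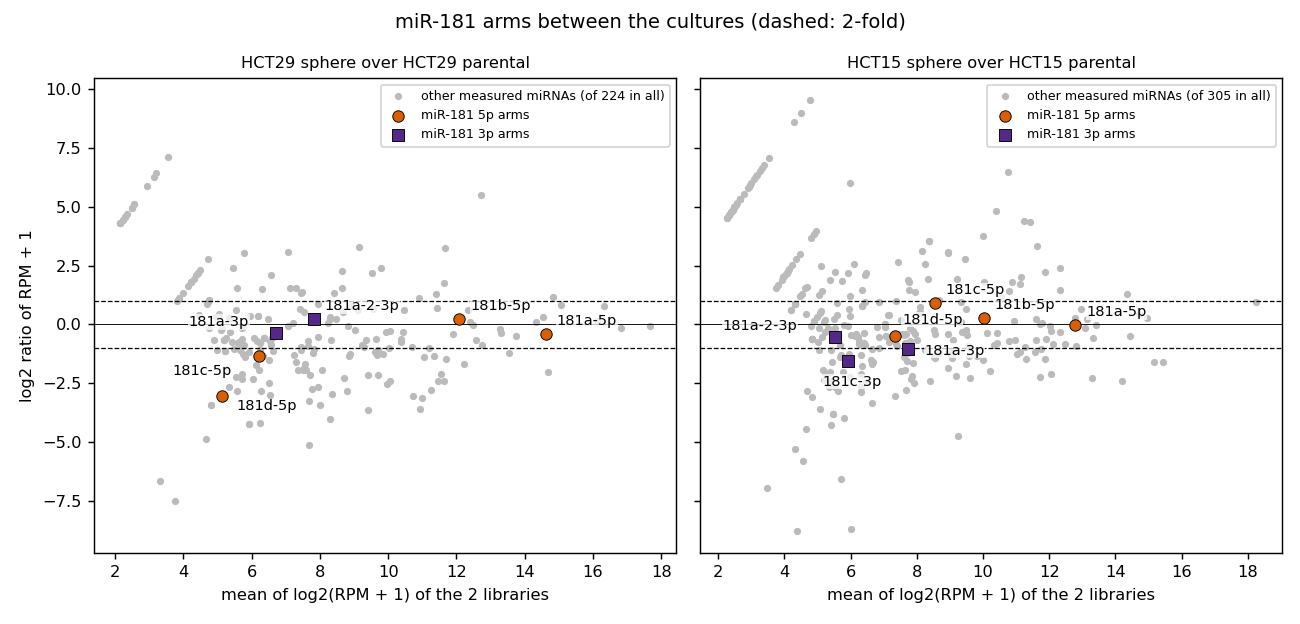
log2 ratio of RPM + 1, sphere over parental, against mean level for HCT29 (left) and HCT15 (right), with measured miRNAs in grey, miR-181 5p arms as circles and 3p arms as squares. miR-181a-5p and miR-181b-5p lie within 2-fold in both lines, and miR-181c-5p lies below the lower line in HCT29 and just under the upper one in HCT15.

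Within a library, the summed guides of chromosome 19, most of them miR-181c-5p, differed in opposite directions in the lines. Their odds among the 5p reads were 3.11 times lower in spheres than in parental cells of HCT29 (1.74 to 5.52), but 1.38 times higher in spheres than in parental cells of HCT15 (1.04 to 1.83). For miR-181c-5p the culture ratio of HCT29 was 0.206 times that of HCT15 (0.0921 to 0.481), and for miR-181d-5p it was 0.162 times (0.0449 to 0.540). With 1 library a group, the difference between the lines was not tested. Within the chromosome 19 pair, miR-181d-5p had 6 of 30 reads in HCT29 spheres (7.71% to 38.6%) and 45.8% of the reads in HCT29 parental cells (25.6 to 67.2), and it had 20.9% in HCT15 spheres (16.4 to 25.9) and 41.2% in HCT15 parental cells (29.4 to 53.8). Its share was lower in spheres in both lines, with an odds ratio of 0.377 in HCT15 (0.209 to 0.689) and 0.295 in HCT29, where the interval includes 1 (0.0732 to 1.14). miR-181b-5p had a larger share of its sum with miR-181a-5p in spheres. The share was 17.5% in HCT29 spheres against 12.2% in HCT29 parental cells, with an odds ratio of 1.52 (1.36 to 1.69), and 14.0% in HCT15 spheres against 11.6% in HCT15 parental cells, with an odds ratio of 1.25 (1.02 to 1.53).

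The balance of arms also differed with culture in HCT15. There were 47.6 reads of miR-181a-5p for each read of miR-181a-3p in HCT15 spheres, against 23.3 in HCT15 parental cells, which is an odds ratio of 2.04 (1.36 to 3.04). miR-181a-5p comes from both miR-181a hairpins and miR-181a-3p from MIR181A1 alone, so this ratio mixes arm and hairpin. With miR-181a-2-3p added to the 3p reads, the ratios were 38.1 in HCT15 spheres and 19.8 in HCT15 parental cells. The odds ratio was then 1.93 (1.33 to 2.77). For miR-181c the ratio of 5p to 3p reads was 14.7 in HCT15 spheres and 2.67 in HCT15 parental cells, an odds ratio of 5.51 (2.32 to 12.9). Such a change was common. Of 66 arm pairs matched by name with at least 10 reads of each arm over both HCT15 libraries, 34.8% had higher odds of the major arm in spheres with an interval that excludes 1, and 16.7% had lower odds. In HCT29 the ratio of miR-181a-5p to miR-181a-3p was 243.7 in spheres and 245.8 in parental cells, an odds ratio of 0.991 (0.492 to 1.86). With both 3p arms it was 66.45 in HCT29 spheres and 88.75 in HCT29 parental cells, an odds ratio of 0.749 (0.507 to 1.08). There 30.8% of 39 pairs had higher and 17.9% lower odds of the major arm in spheres. The miR-181c pair of HCT29, with 1 read of the 3p arm in all, could not be compared.

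**Figure D5:**
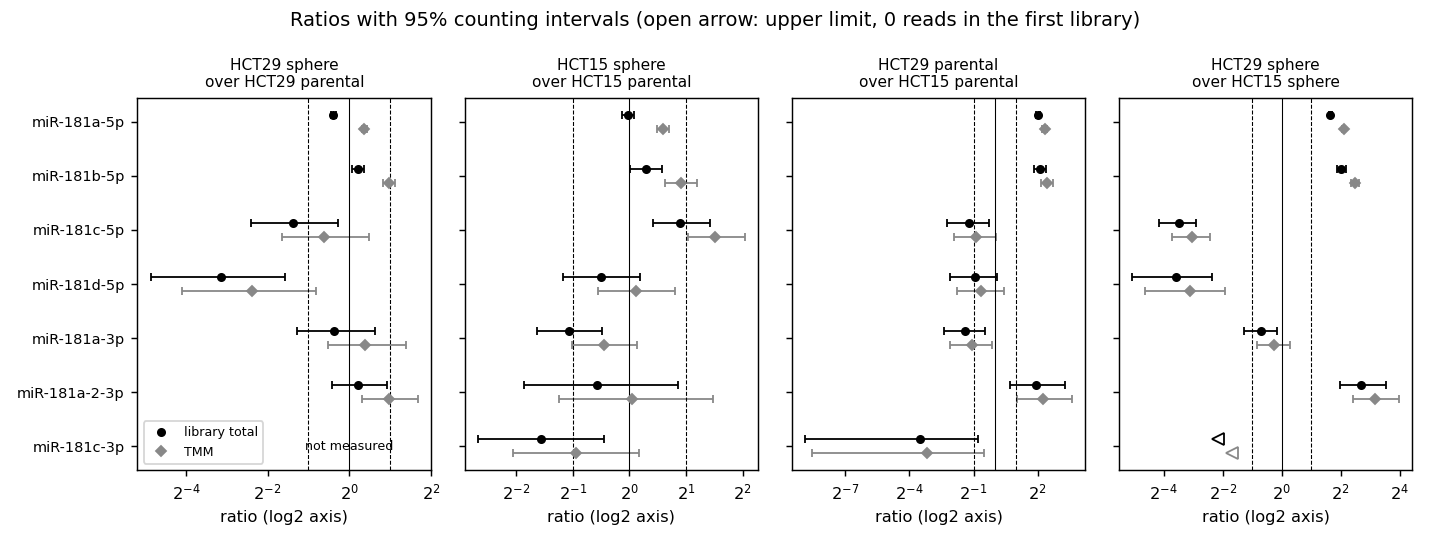
Ratio of each miR-181 arm in the 4 comparisons on a log2 axis, from library totals (black circles) and after TMM scaling (grey diamonds), with 95% counting intervals, dashed lines at 2-fold and an open arrow at the upper limit for 0 reads. The ratios of miR-181a-5p and miR-181b-5p between the lines lie above 2-fold under both scalings, and those between cultures lie within 2-fold under both.

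With the 4 libraries in 1 fit, limma on log2(RPM + 1) tested 222 miRNAs that had at least 10 reads in at least 2 libraries, with terms for line and culture. The lines then serve as the replicates of the culture effect and the cultures as those of the line effect, with 1 residual degree of freedom. limma draws each miRNA's variance toward that of all 222 at like levels. The SEs and p-values below thus rest largely on that pooled spread and do not measure a member's own spread between libraries. For culture, limma called 0% of the 222 higher and 0% lower after Benjamini-Hochberg adjustment, and 12 had an unadjusted p under 0.05, none of them a member. On the recovered reads edgeR's quasi-likelihood test called 0 miRNAs for culture, DESeq2 called 1 and limma voom 1. Of the members, miR-181d-5p had the lowest p, with a log2 difference of spheres minus parental cells of -1.77 (SE 1.30, limma adjusted p = 0.968), lower in 2 of 2 lines on the RPM scale. In HCT15 its counting interval includes 1, and its log2 ratio there was 0.11 under TMM and -0.04 under DESeq2 size factors. For line, limma called 3.60% higher and 9.01% lower in HCT29, and 0 of the 6 members in either direction. miR-181a-5p had a log2 difference of HCT29 minus HCT15 of 1.83 (SE 1.18, limma adjusted p = 0.348) and miR-181b-5p one of 2.07 (SE 1.30, limma adjusted p = 0.338), each higher in 2 of 2 cultures. miR-181c-5p had -2.34 (SE 1.25, limma adjusted p = 0.232) and miR-181c-3p -4.26 (SE 1.98, limma adjusted p = 0.162), each lower in HCT29 in 2 of 2 cultures. Among the members only miR-181c-3p had an unadjusted p under 0.05 for line in this fit. edgeR, DESeq2 and limma voom, which also called 0 members, had 1, 2 and 3 such members. Of all 222 miRNAs, 52 had one in this fit, 41 in edgeR, 50 in DESeq2 and 53 in limma voom. The counts of members thus say little by themselves. miR-181c-3p entered the fit through the HCT15 libraries alone, where it was high, with 0 reads in HCT29 sphere and 1 in HCT29 parental. Its p-value is therefore no support for a difference between the lines. On the RPM scale the counting intervals of the ratio between the lines exclude 1 in both cultures for miR-181a-5p, miR-181b-5p, miR-181c-5p and miR-181a-3p. They also do so for miR-181c-3p, which passed the filter through HCT15 alone, but not for miR-181d-5p in parental exosomes. How often such intervals exclude 1 over all measured miRNAs was not counted. They cover counting error only, so this is no test of the lines. No member passed a test across libraries.

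The miR-23a, miR-27a and miR-24-2 genes, whose products act in muscle, fat and blood cells among others, lie 38039 bases from MIR181C on chromosome 19, on the opposite strand. Of the 6 arms of that list, 5 were measured in HCT15, where 3 were higher and 2 lower in spheres, beside 32.1% and 28.2% of all measured miRNAs. In HCT29, 3 were measured, of which 0 were higher and 2 lower in spheres, beside 23.2% and 36.2%. Between the lines, 2 of 5 were higher and 2 lower in HCT29 parental than in HCT15 parental exosomes, beside 22.8% and 46.4%. In HCT29 sphere against HCT15 sphere exosomes 0 were higher and 5 lower, beside 25.2% and 56.0%. Their 3 most abundant arms were far higher in HCT15 spheres, miR-27a-3p at 20.4 times the parental level (16.6 to 25.5), miR-24-3p at 13.6 times (9.97 to 18.99) and miR-23a-3p at 3.48 times (2.94 to 4.14), each above the 1.87 times of miR-181c-5p. In HCT29 spheres miR-27a-3p was at 0.599 times the parental level (0.507 to 0.711). Their minor arms miR-27a-5p and miR-24-2-5p were lower in HCT15 spheres, at 0.239 times (0.103 to 0.537) and 0.406 times (0.210 to 0.799), as were miR-181a-3p and miR-181c-3p. In both comparisons of the lines, miR-27a-5p and miR-24-2-5p are among the arms counted as lower in HCT29. There they passed the filter through HCT15 alone, where they were high. miR-24-3p also has a gene on another chromosome.

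Markers of other cells varied over the same libraries. The 7 blood cell markers summed to 359.8 RPM in HCT29 sphere, 1644.6 in HCT29 parental, 151.8 in HCT15 sphere and 4023.2 in HCT15 parental, and 3, 0, 3 and 1 of them were at 0. Those at 0 in both sphere libraries were miR-451a, miR-223-3p and miR-144-3p, and most of the sum there was hsa-miR-486-5p, with 322.1 RPM in HCT29 sphere and 114.9 in HCT15 sphere. The 6 fibroblast and smooth muscle markers summed to 180.8 RPM in HCT29 sphere, 1481.9 in HCT29 parental, 4557.4 in HCT15 sphere and 1200.2 in HCT15 parental, and 4, 2, 0 and 2 of them were at 0. The 3 nerve markers summed to 158.2 RPM in HCT29 sphere, 325.3 in HCT29 parental, 225.5 in HCT15 sphere and 2011.6 in HCT15 parental. Of them hsa-miR-9-5p and hsa-miR-124-3p were at 0 in both HCT29 libraries, and hsa-miR-9-5p had 1302.4 RPM in HCT15 parental. The 2 endothelial markers summed to 450.2, 849.4, 158.3 and 934.2 RPM in the same order of libraries. The part of these cells in the miR-181 values was not tested.

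Likeness of profiles was measured as the root mean square difference of log2(RPM + 1) over the 4 libraries, each profile centred on its own mean, among 215 other miRNAs of the limma set. miR-181a-5p was nearest to miR-652-3p and miR-196a-5p, each at 0.257, and to miR-452-5p at 0.290, beside a median of 1.63. miR-181b-5p was nearest to miR-196a-5p (0.300), miR-452-5p (0.415) and miR-27b-3p (0.416). miR-181c-5p was nearest to let-7g-5p (0.348), miR-29a-3p (0.421) and miR-130b-3p (0.445), and miR-181d-5p to miR-324-5p (0.308). miR-181a-3p was nearest to miR-125a-3p (0.158), and miR-181c-3p to miR-24-2-5p (0.578), an arm of the neighbouring chromosome 19 genes, where both had 0 or 1 reads in each HCT29 library, so that this value rests largely on counts under the floor. Within the family, miR-181a-5p differed from miR-181b-5p by 0.268, from miR-181a-2-3p by 0.366, from miR-181a-3p by 1.48 and from miR-181c-5p by 2.14. These are descriptions over 4 points.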

How the data were processed

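The deposited values are RPM, computed by the authors and named so per the file headers of the HCT15 tables. The HCT29 headers name only the culture, and those columns were read as RPM because they behave alike. The submitters' processing notes name hg19, and the aligner was not given in the sources used here. Libraries were made with a TruSeq small RNA kit, per the labels' protocols. Whole reads were recovered by finding the library total that makes each value whole, and 100% of nonzero values came within 0.1 read. No column was left out. Listed miRNAs hold 86.8, 87.3, 89.9 and 77.8% of the totals of HCT29 sphere, HCT29 parental, HCT15 sphere and HCT15 parental. Ratios are of RPM and calls use RPM + 1. Tests used limma 3.58.1, with edgeR 4.0.16 and DESeq2 1.42.0 on recovered reads as alternatives. The fits were also run on simulated reads with a set line effect and a set spread. That run cannot show how they behave at the spread of these data. Gene positions come from GENCODE 29 (GRCh38), not the authors' build. Members and lists were chosen with earlier results of these data known. Named are all members, all other miR-181 arms, up to 3 arms of each list and the 3 nearest profiles at most. miR-27a-5p, miR-24-2-5p, miR-194-5p, miR-215-5p and the markers at 0 were named after their values were seen.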

Additional observations from a re-analysis of the deposited data

Results flagged for a closer look

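miR-181c-5p drew attention because its sphere to parental ratio went opposite ways in the lines, 0.385 in HCT29 and 1.87 in HCT15, each with a counting interval that excludes 1 on the RPM scale. Under TMM the log2 ratios were -0.62 in HCT29 and 1.51 in HCT15, and the HCT29 interval then includes 1, so the flag does not hold under TMM. Scaled to listed miRNA reads they were -1.35 and 0.69, and under DESeq2 size factors -0.50 and 1.36. On the RPM scale the HCT29 ratio was 0.206 times the HCT15 one. With 1 library a group this difference was not tested. Also flagged was the share of miR-181c-5p and miR-181d-5p among the 5p reads, which does not depend on scaling. Its sphere to parental odds ratio was 0.321 in HCT29 and 1.38 in HCT15, so that the first was 0.234 times the second, also not tested.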

How the results depend on the processing

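No paired analysis was possible because the labels carry no replicate numbers to serve as a block and each group has 1 library. The terms for line and culture in limma pair the libraries only by line and by culture. No library could be left out, since 3 libraries leave no residual degree of freedom. In HCT29 spheres over parental cells, members called lower numbered 2 on the RPM scale and 1 under TMM, DESeq2 size factors or a filter of at least 20 reads, and members called higher numbered 0, or 1 under DESeq2 size factors. In HCT15 spheres over parental cells, members called lower numbered 2, or 0 under TMM and 1 under DESeq2 size factors or the filter of 20 reads, and members called higher 0, or 1 under either scaling. Between parental libraries DESeq2 size factors left 1 member lower in HCT29, against 3. The summed ratio of the members in HCT29 spheres, 0.807, became 1.36 under TMM and 1.48 under DESeq2 factors, so its direction turned. In HCT15 spheres 1.00 became 1.54, 1.38 and, scaled to listed miRNA reads alone, 0.870. HCT29 over HCT15 parental, 3.71, became 4.61, 4.87 and 3.31, and spheres, 2.99, became 4.08 under TMM and 5.22 under DESeq2 factors. Of 23 log2 ratios of single members, 10 left their counting interval under TMM, 10 under DESeq2 factors and 2 when scaled to listed reads, and 0 of the called ones changed sign. Under 8 alternative fits, 0 members passed for culture or line, with adjusted p for the line effect between 0.0887 and 0.915. Depth limits miR-181c-3p and miR-181d-5p in HCT29, with at most 11 reads. Pseudocounts of 0.1 and 10 RPM and no filter left the counts of calls within 1.5 times.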

Other observations

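Short motifs linked to sorting of miRNAs into exosomes in other cells were searched in the mature strands, as plain letters on the RNA strand alone. GGAG, GGCU and CCCU were in 0 of the 10 listed arms of the family, and in 15.7%, 12.4% and 12.1% of the 2281 listed miRNAs with a RefSeq sequence. The absence says only that these letters are not in these strands.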
